A study of Oncorhynchus mykiss with 43 samples.

Results

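Fast muscle of rainbow trout that had been refed for 36 days after a month without food was compared with muscle of trout killed at the end of that fast. The samples were chosen by their labels, 9 fish at 36 days post-refeeding and 8 fasted fish, and make up 17 of the 43 fish of the series, the others having been refed for 4, 7 or 11 days. All fish were yearlings of a spring strain, all groups had gone through the same fast, and the refed fish were given more than the normal ration until they were sampled. Each RNA came from a slice of fast muscle beneath the dorsal fin of a single fish, and its radiolabelled cDNA was hybridised to a nylon membrane of its own that carried 9023 trout cDNA clones. Fish at 36 days were older than fasted fish and had been kept in colder water by the time of sampling, so that refeeding, age and temperature cannot be told apart in this comparison, and no group of fish fed throughout stands beside them.

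Skeletal muscle is the main protein store of a fish, and during a fast the amino acids of its proteins are released by lysosomal proteases such as the cathepsins and by the ubiquitin-proteasome system. In this system, activating and conjugating enzymes and ligases attach chains of ubiquitin to a protein, and the proteasome, a proteolytic core with a regulatory particle on its ends, unfolds and cuts the tagged protein. When food returns, muscle rebuilds its ribosomes, translation factors and chaperones, and then lays down new sarcomeres, in which thick filaments of myosin slide along thin filaments of actin, tropomyosin and troponin. Growing fish also add new muscle fibres throughout much of their life, so that proteins of the cell cycle, the cytoskeleton and the secretory pathway are made in growing muscle as well.

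The values are spot intensities, scaled to a vector oligonucleotide hybridised to the same spot and to the array median, on a linear scale from 0.221 to 131.9, and are called values here. The median of the listed values still differed between arrays, from 2.12 to 3.63 at 36 days and from 2.14 to 3.14 in fasted fish. A value was listed for 1441 to 2268 clones in fish at 36 days (median 2133) and for 1630 to 2587 clones in fasted fish (median 2175), a difference of the means of -167 clones (exact permutation test, two-sided, p = 0.247). Of the 9023 clones, 5109 had no value in any of the 17 fish, and 1676 had a value in at least 5 fish of both groups and were tested with limma on log2 values. A clone was called at a Benjamini-Hochberg adjusted p under 0.05, and every difference given below is the mean log2 value at 36 days minus that of fasted fish, with its standard error (SE). Gene names could be given to 290 clones, of which 98 were tested, 99 had too few values and 93 had none. The study printed these names from clones it had first selected and clustered by their course over time on these arrays. Degradation names came from the cluster high in fasted muscle, and contractile and cytoskeletal names from a cluster raised later in refeeding. Reticulum and Golgi names came from later clusters, transcriptional regulators from clones induced in recovery, and other roles from a cluster raised transiently. Counts over named clones by direction or by day are therefore not independent evidence. Of 7 clones for fast muscle fibre markers 7 had a value at 36 days and 6 in fasted fish, whereas the 1 clone for a blood cell marker, Spi-1/PU.1, had none in either group, and apolipoprotein B-100, a liver marker, had a value in 4 of 9 fish at 36 days and 2 of 8 fasted fish. The 4 fast fibre clones measured on all 17 arrays summed to 31.8 to 43.5 at 36 days (median 36.9) and to 24.9 to 35.2 in fasted fish (median 30.6). These were 2 clones of skeletal troponin C, myosin light chain 1 of skeletal muscle and nebulin. Their sum does not measure the share of fast fibres. Of 4 clones for slow or cardiac type fibre markers 3 had a value in each group. Of these slow or cardiac type markers, troponin T averaged 8.86 ± 2.00 at 36 days and 5.00 ± 1.71 in fasted fish. Myosin light chain 1 of cardiac muscle averaged 3.30 ± 0.710 at 36 days and 1.59 ± 0.249 in fasted fish (SD, n = 7 to 9). What part the makeup of fibre types has in the results on contractile clones was not tested.

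Muscle at 36 days post-refeeding differed from fasted muscle in both directions. In all 543 clones were called, 32.4% of those tested, with 238 higher at 36 days (14.2%) and 305 lower (18.2%). In this fit the called clones that rose changed more, with a median of 1.5-fold against 1.36-fold for the called clones that fell. The median difference of all tested clones was -0.05. Changes of 2-fold or more were few, 16 upward and 18 downward. At an adjusted p under 0.0001 there were 41 higher (2.45%) and 30 lower clones (1.79%). When the arrays were quantile normalized, which moved the median of all clones to -0.17, 123 clones were higher and 308 lower, so that the share of rises among the calls was 28.5% instead of 43.8%. When each array's number of values entered the fit 221 clones were higher and 218 lower, and without fasted fish 3 there were 227 and 225, so that the balance of rises and falls moved with the setting. Fish of the 2 groups did not overlap for 6.74% of the tested clones, 61 of those that rose and 50 of those that fell.

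**Figure D1:**
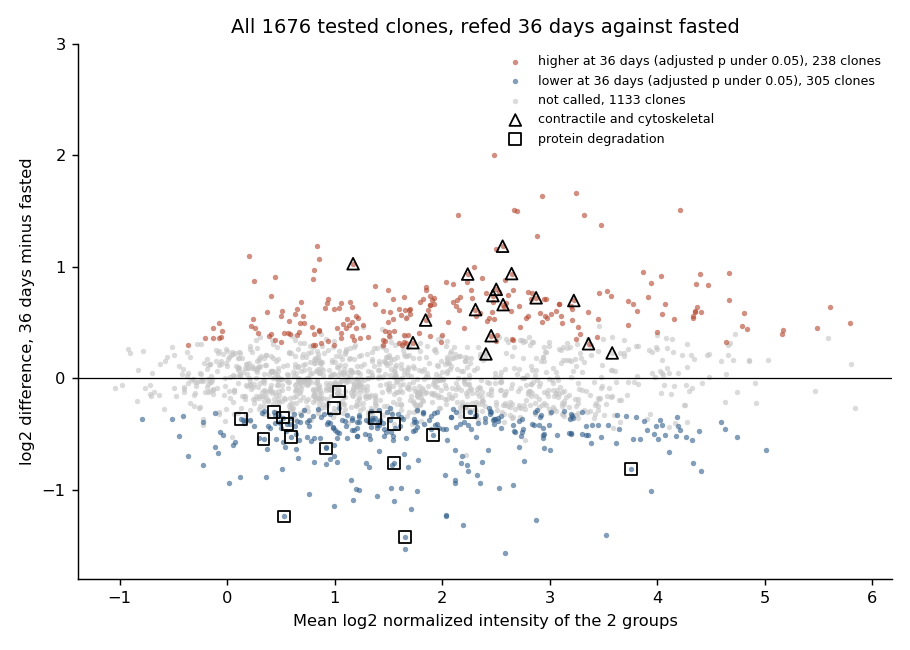
Difference of the mean log2 value at 36 days minus fasted (vertical) against the mean log2 value of both groups (horizontal) for the 1676 tested clones, with the 238 higher and 305 lower clones coloured. Open triangles mark the 16 contractile and cytoskeletal clones, all above 0, and open squares the 17 protein degradation clones, all below 0.

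Calls of rises were more frequent among bright clones. Among the 419 tested clones with the lowest mean level 8.35% were higher and 14.3% lower at 36 days, and among the 419 with the highest level 19.8% were higher and 18.6% lower. Fish of both groups varied alike, with a median SD over clones of 0.235 on the log2 scale at 36 days and 0.232 in fasted fish. The largest rises and falls were those of clones without a name. Clone 1RT83J04_D_E02 had values of 6.07 to 21.2 at 36 days (median 10.7) and 2.15 to 4.38 in the 5 fasted fish with a value (median 2.53), with no overlap and a difference of 2.01. Clone 1RT50H10_D_D05 had values of 2.17 to 4.93 at 36 days (median 3.65) and 6.73 to 13.7 in fasted fish (median 11.1), again with no overlap and a difference of -1.57.

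The plot by role shows the named clones, with protein degradation below 0 and the contractile apparatus above it. Both directions were largely set when the study chose these clones on the same arrays, so that they are not a finding about the roles. Of the 98 named clones tested 34 were higher (34.7%), 16 lower (16.3%) and 48 not called, beside 14.2% higher and 18.2% lower among all tested clones. The 17 clones of protein degradation had a median difference of -0.41 and the 16 contractile and cytoskeletal clones one of 0.68, beside -0.05 over all tested clones. Reticulum and Golgi clones had a median of 0.60 and transcriptional regulators one of 0.56. For the other groups it lay between -0.17, for the only ribosomal protein clone, and 0.21. After quantile normalization the median was -0.53 for protein degradation and 0.54 for contractile and cytoskeletal clones, beside -0.17 over all tested clones. The sizes of rises and falls thus moved with the setting too. In bulk muscle, a change in the RNA of each cell and a change in the number of cells of a type cannot be told apart.

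**Figure D2:**
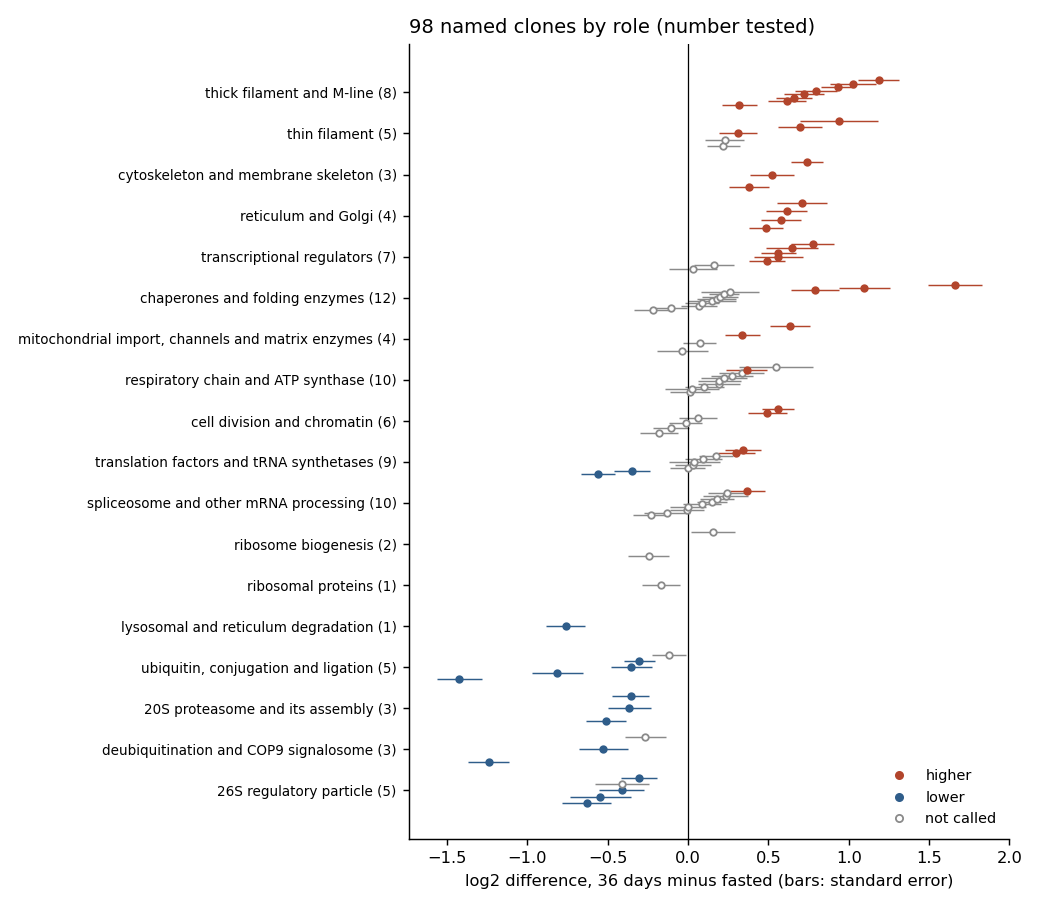
Difference of the mean log2 value, 36 days minus fasted, with its standard error, for each of the 98 named clones tested, by the role of the protein (number tested in parentheses). Filled points are calls at an adjusted p under 0.05 from limma. All 14 called clones of the 5 degradation groups at the bottom lie left of 0.

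The named clones of protein degradation were lower at 36 days than in fasted muscle. Of the 43 named clones with this role 31 had a value in the 17 fish and 17 could be tested. Of these, 14 fell and 3 were not called, beside 18.2% lower among all tested clones. The difference was negative for all 17, as it was for 56.4% of all tested clones. These names were printed from the study's cluster high in fasted muscle and lower after refeeding, found on these same arrays. Neither count is therefore evidence that degradation transcripts as a class fell. The number that fell was 8 when the number of values per array was taken as a covariate and 9 without the 3 arrays that had fewer than 1700 values, both chosen after seeing the data. It was 9 without fasted fish 3, 9 without fasted fish 7 and 10 to 14 without any other fish. After quantile normalization, with the fish number as a block or with 1 added to each value it was 10. It was 11 with values of 0 set to the lowest of the array, and 15 with all 43 arrays in the fit.

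In the tagging step, the ligase homolog and ubiquitin itself fell the most. The Ariadne-2 protein homolog, a ubiquitin ligase of the RING-between-RING type, had values of 1.5 to 2.76 at 36 days (median 1.88, n = 8) and 3.59 to 7.51 in fasted fish (median 5.04, n = 8). Every fish at 36 days with a value lay below every fasted fish, and the clone was 2.68-fold lower (difference -1.42, SE 0.14, adjusted p = 1.56e-07 by limma). Ubiquitin, the tag, had values of 5.16 to 13.1 at 36 days (median 10.7, n = 9) and 13.8 to 24.7 in fasted fish (median 16.5, n = 8). The groups did not overlap either, and ubiquitin was 1.76-fold lower (difference -0.81, SE 0.16, adjusted p = 4.56e-04 by limma). Fish 3 of the 36-day group was the lowest for ubiquitin, and the difference was -0.69 without it.

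Other enzymes that pass on ubiquitin had smaller differences. The Itchy homolog, a HECT-type ubiquitin ligase, fell by 0.30 on the log2 scale (SE 0.10, adjusted p = 0.0201 by limma), with values of 3.82 to 4.95 at 36 days (median 4.35) and 4.37 to 6.17 in fasted fish (median 5.67). All 9 fish at 36 days lay below the fasted mean, but the groups overlapped. The conjugating enzyme E2 G2 fell by 0.35 (adjusted p = 0.0392), and this call was lost in 9 of the 17 fits that left out a single fish, with an adjusted p of up to 0.0926 without fish 10 of the 36-day group. The conjugating enzyme E2-25 kDa was not called, with a difference of -0.12 (95% confidence interval -0.34 to 0.11).

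Of the signalosome, which removes the ubiquitin-like protein NEDD8 from cullin ligases, both tested subunits fell, beside 18.2% lower among all tested clones. Their names came from the study's cluster high in fasted muscle. COP9 signalosome complex subunit 7 had values of 0.655 to 1.16 at 36 days (median 1.01, n = 8) and 1.66 to 2.59 in fasted fish (median 2.36, n = 8). The groups were apart, with a 2.36-fold lower level at 36 days (difference -1.24, SE 0.13, adjusted p = 1.71e-07 by limma). Subunit 8 had a value in only 5 fish at 36 days, of 1.06 to 1.71 (median 1.20), against 1.31 to 2.45 in 8 fasted fish (median 1.84), and its difference was -0.53 (adjusted p = 0.0129). Ubiquitin carboxyl-terminal hydrolase 13, a deubiquitinating enzyme, had a difference of -0.26 (95% confidence interval -0.53 to -0.00, adjusted p = 0.112), and was called without fish 3 of the 36-day group (difference -0.33, adjusted p = 0.0410 by limma).

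The 3 tested clones of the proteasome core and its assembly had differences of -0.51 to -0.36, and the 5 of the regulatory particle -0.63 to -0.30. Their names, too, came from the study's cluster high in fasted muscle, so that the direction was largely set beforehand. Proteasome subunit alpha type 5, of the outer rings of the core, had values of 2.50 to 4.05 at 36 days (median 3.05, n = 9) and 3.64 to 6.28 in fasted fish (median 4.32, n = 8). All 9 fish at 36 days were below the fasted mean while the groups overlapped at their edges, and the difference was -0.51 (SE 0.12, adjusted p = 0.00272 by limma). The proteasome activator complex subunit 2, part of an alternative cap of the core, fell by 0.36 (adjusted p = 0.0236), and the maturation factor ump1, which assists assembly of the core, by 0.37 (adjusted p = 0.0400). The call of the activator was lost without fish 4 of the 36-day group and without fasted fish 7 (adjusted p = 0.0561), and that of ump1 in 8 of 17 fits without a single fish (up to 0.0943 without fish 7 of the 36-day group).

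In the regulatory particle 4 of 5 tested clones fell, beside 18.2% lower among all tested clones. Their names came from the study's cluster high in fasted muscle, so that this count is not evidence about the particle. 26S proteasome non-ATPase regulatory subunit 12 had values of 1.21 to 1.95 at 36 days (median 1.48, n = 7) and 1.81 to 3.58 in fasted fish (median 2.17, n = 8), a 1.55-fold lower level (difference -0.63, SE 0.15, adjusted p = 0.00328 by limma). Only the highest fish at 36 days reached into the fasted range. The 26S protease regulatory subunit 4, an ATPase of the particle, was spotted as 2 clones, which fell by 0.41 (clone 1RT96M10_C_G05, adjusted p = 0.0298) and 0.55 (clone tcay0027.g.06, adjusted p = 0.0313). The call of clone 1RT96M10_C_G05 was lost without any of 6 single fish, and that of clone tcay0027.g.06 without any of 5, among them fish 3 of the 36-day group (difference -0.39, adjusted p = 0.0837). Non-ATPase subunit 7 fell by 0.30 (adjusted p = 0.0400), a call lost in 9 of 17 fits without a single fish, and the ubiquitin receptor subunit 4 was not called at -0.41 (95% confidence interval -0.76 to -0.06, adjusted p = 0.0689).

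Cathepsin D, a lysosomal aspartic protease, had values of 1.72 to 2.92 at 36 days (median 2.14, n = 9) and 3.05 to 4.98 in fasted fish (median 3.82, n = 8). No fish at 36 days reached the lowest fasted fish, and the difference was -0.76 (SE 0.12, adjusted p = 4.44e-05 by limma). The label of this clone as read differs by 1 digit from the clone that was taken for it, at the same place of its plate, so that the name is less sure than the others. Cathepsin B, a lysosomal cysteine protease, was listed in 3 of 9 fish at 36 days, at 1.5 to 1.64, and in 8 of 8 fasted fish, at 3.16 to 5.98. It thus stayed outside the test, and its values at 36 days were all below those of fasted fish.

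**Figure D3:**
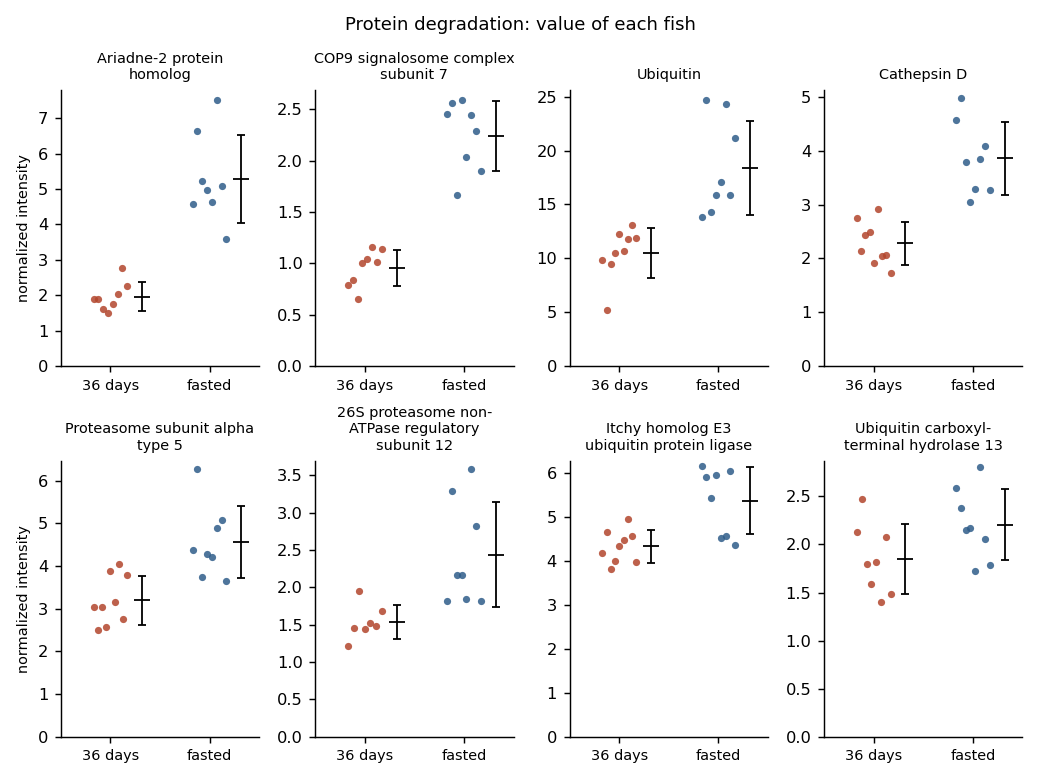
Value (normalized intensity, vertical, linear from 0) of each fish refed for 36 days (left) and each fasted fish (right) for 8 protein degradation clones, with the mean and SD beside the points. The groups are apart for the Ariadne-2 homolog, COP9 subunit 7, ubiquitin and cathepsin D, and overlap for the other 4 clones, of which ubiquitin carboxyl-terminal hydrolase 13 was not called.

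Of the 14 degradation clones with a value that could not be tested, 2 were listed in more fish at 36 days and 12 in more fasted fish. These names, too, came from the study's cluster high in fasted muscle, so that this count is not evidence about the class. Of all 2238 clones with a value that were not tested, 282 had one in 5 or more fish of the fasted group only. For 237 this held for the 36-day group only. RING finger protein 2 was listed in 7 fish at 36 days and 3 fasted fish, and ubiquitin-conjugating enzyme E2 H in 2 and 0. The proteasome-associated protein ECM29 homolog, an adaptor of the proteasome, had a value in 0 of 9 fish at 36 days and in 7 of 8 fasted fish, at 1.02 to 2.62. 26S proteasome non-ATPase regulatory subunit 13 was listed in 1 fish at 36 days and 7 fasted fish, the ER degradation-enhancing alpha-mannosidase-like protein, which helps to select misfolded glycoproteins for destruction, in 1 and 6, and proteasome subunit beta type 2 and cullin-3, a scaffold of ubiquitin ligases, in 1 and 5 each. Among the 3914 clones with a value in any of the 17 fish, Fisher's exact test of the number of fish with a value called none at an adjusted p under 0.05 (0%), and 215 were under an unadjusted p of 0.05 (5.49%). For ECM29 the adjusted p was 0.179 (unadjusted p = 4.11e-04, two-sided) and for cathepsin B 0.466. These clones are therefore not counted among those that fell, and an empty cell gives no upper limit, since the rule that left it empty is not given in full in the sources used here.

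The named clones of the contractile apparatus and the cytoskeleton were higher at 36 days. Of 27 clones with these roles 21 had a value and 16 were tested, of which 14 rose and 2 were not called, beside 14.2% higher among all tested clones. The difference was positive for all 16, as it was for 43.6% of all tested clones. These names were printed from a cluster raised later in refeeding on these same arrays, so that neither count is evidence about the class. After quantile normalization 10 of the 16 were called, the calls of unc-89, troponin C, the actin-related protein 2/3 complex subunit and the capping protein being lost, and between 12 and 15 when any single fish was left out. The names come from the best match in a protein database of all species, so that words such as cardiac or skeletal are those of the matched protein.

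All 8 tested clones grouped under thick filament and M-line rose, beside 14.2% higher among all tested clones. Their names came from the study's cluster raised later in refeeding, so that the direction was largely set beforehand. Myosins were put in this group by name, whether or not they belong to the sarcomere. Myosin light polypeptide 4, an essential light chain known in mammals from embryonic and atrial muscle, had values of 6.45 to 11.7 at 36 days (median 8.62, n = 9) and 2.68 to 5.65 in fasted fish (median 4.03, n = 8). The groups were apart, with a 2.27-fold higher level at 36 days (difference 1.19, SE 0.13, adjusted p = 2.48e-07 by limma). Myosin light polypeptide 6, in mammals a light chain of smooth muscle and non-muscle myosin, was measured by 2 clones that did not overlap between groups. Clone 1RT74D04_D_B02 had values of 5.85 to 7.97 at 36 days (median 6.24) and 2.55 to 4.29 in fasted fish (median 3.48), and clone 1RT140H09_B_D05 had 6.38 to 9.55 (median 7.17) and 2.86 to 5.56 (median 4.45). Their differences were 0.94 and 0.80.

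The light chain isoforms of striated muscle followed. Myosin light chain 1 of skeletal muscle, which holds the lever arm of the myosin head, had values of 5.47 to 9.10 at 36 days (median 7.71) and 3.87 to 5.66 in fasted fish (median 4.80). Only the lowest fish at 36 days lay within the fasted range, and the difference was 0.66 (SE 0.11, adjusted p = 1.18e-04 by limma). Its cardiac counterpart had values of 1.82 to 4.15 at 36 days (median 3.43, n = 9) and 1.26 to 2.09 in fasted fish (median 1.57, n = 7), a 2.04-fold higher level (difference 1.03, SE 0.14, adjusted p = 1.17e-05). Myosin regulatory light chain 2 rose by 0.62. Myosin-10, which is not a light chain and was grouped here by its name, rose by 0.72. It had values of 6.99 to 11.1 at 36 days (median 9.74) and 3.88 to 7.44 in fasted fish (median 5.55). The M-line assembly protein unc-89, related to obscurin, rose least of the 8, by 0.32 (adjusted p = 0.0279), and was not called without fish 7 of the 36-day group or without fasted fish 6, 8 or 10 (adjusted p up to 0.0613).

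Of 5 clones grouped by name under the thin filament 3 rose and 2 were not called, beside 14.2% higher among all tested clones. These names, too, came from the cluster raised later in refeeding. Troponin T of cardiac muscle isoforms, the troponin subunit that binds tropomyosin, had values of 6.37 to 13 at 36 days (median 8.37) and 1.14 to 6.74 in fasted fish (median 5.06). All 9 fish at 36 days were above the fasted mean, and the difference was 0.94 (SE 0.24, adjusted p = 0.00507 by limma). Fasted fish 2 was far below the others for this clone, and the difference was 0.66 without it (adjusted p = 5.74e-04). Tropomyosin alpha 4 chain, which lies along actin filaments, rose by 0.70 (SE 0.14, adjusted p = 4.77e-04), with values of 7.89 to 14.8 at 36 days (median 12.2) and 4.89 to 9.36 in fasted fish (median 8.04).

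For troponin C, the calcium sensor of the thin filament, the call differed between clones. Nebulin, which spans the length of that filament, was not called. Clone 1RT73O02_C_H01 of skeletal troponin C rose by 0.31 (adjusted p = 0.0482 by limma), with values of 8.10 to 14.1 at 36 days (median 12.2) and 7.41 to 11.6 in fasted fish (median 8.91), and this call was lost in 12 of 17 fits without a single fish. Clone 1RT144L05_B_F03 was not called at 0.22 (95% confidence interval 0.01 to 0.43, adjusted p = 0.104), but was without fish 3 of the 36-day group (adjusted p = 0.0341) and without fasted fish 4. Nebulin had a difference of 0.23 (95% confidence interval -0.03 to 0.48, adjusted p = 0.161). It was called in 1 of 17 fits without a single fish, at 0.30 without fish 3 of the 36-day group (adjusted p = 0.0442).

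The actins themselves could not be tested, because few fish at 36 days had a value. Actin alpha of skeletal muscle was listed in 4 of 9 fish at 36 days, at 16.2 to 28.1, and in 8 of 8 fasted fish, at 6.85 to 13. Cardiac actin alpha was listed in 3 fish at 36 days, at 14.3 to 23.7, and in 7 fasted fish, at 6.46 to 15. For skeletal actin every value at 36 days was above every fasted value, and for cardiac actin the groups overlapped. The cells were thus empty more often in the group whose listed values were higher, and the cause was not tested.

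In the cytoskeleton and membrane skeleton all 3 tested clones rose, beside 14.2% higher among all tested clones. Their names came from the same later cluster, so that the direction was largely set beforehand. Dystrophin, which links actin to the glycoprotein complex of the fibre membrane, had values of 5.91 to 8.09 at 36 days (median 7.26, n = 9) and 3.54 to 4.93 in fasted fish (median 4.39, n = 7). The groups were apart, with a 1.67-fold higher level (difference 0.74, SE 0.10, adjusted p = 6.33e-06 by limma). Subunit 3 of the actin-related protein 2/3 complex, which nucleates branched actin filaments, rose by 0.52 (adjusted p = 0.00575), and the beta subunit of F-actin capping protein, which blocks filament ends, by 0.38 (adjusted p = 0.0221). Fish 3 of the 36-day group had the lowest value of the capping protein among both groups, at 3.91, against 5.53 to 7.86 in the other 8 fish at 36 days.

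**Figure D4:**
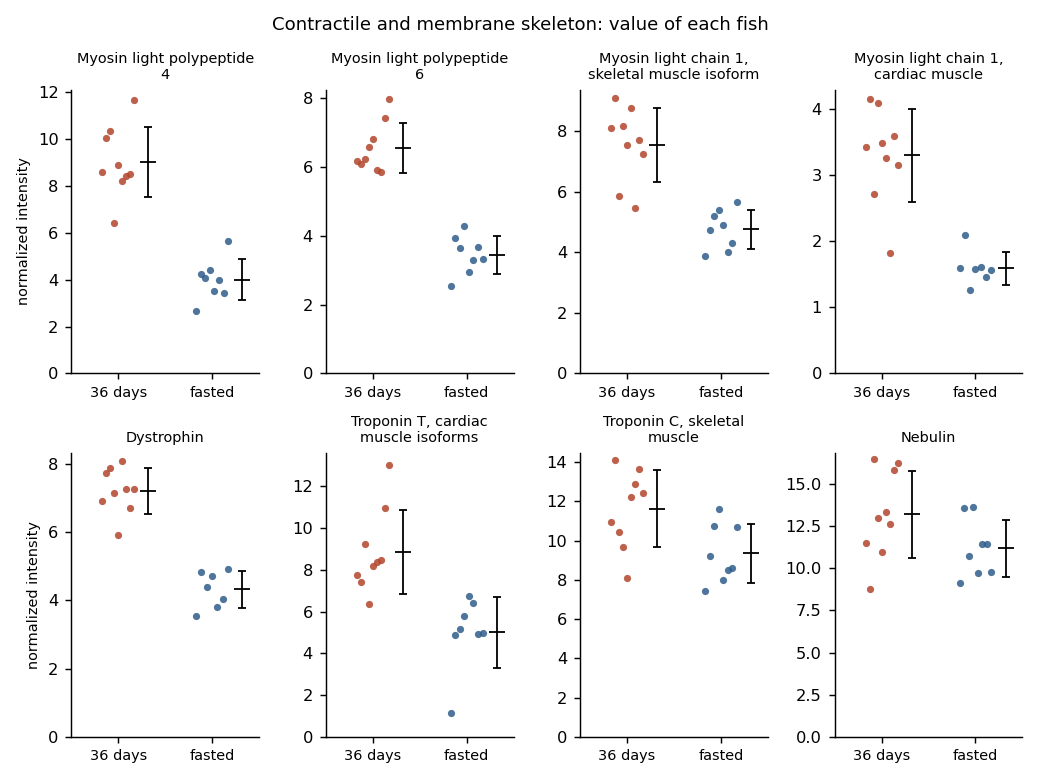
Value (normalized intensity, vertical, linear from 0) of each fish refed for 36 days (left) and each fasted fish (right) for 8 contractile and membrane skeleton clones, with the mean and SD beside the points (for myosin light polypeptide 6, clone 1RT74D04_D_B02, and for troponin C, clone 1RT73O02_C_H01). The groups are apart for both myosin light polypeptides and dystrophin and overlap for the others, of which nebulin was not called.

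Reticulum and Golgi transcripts were higher at 36 days in all 4 tested clones of 21, and in 3 of the 4 after quantile normalization, beside 14.2% and 7.34% of all tested clones. Their names, too, were printed from clusters raised later in refeeding, so that the direction was largely set beforehand. N-acetyllactosaminide alpha-1,3-galactosyltransferase, which adds galactose to the ends of glycan chains in the Golgi, had values of 7.11 to 12.6 at 36 days (median 8.85) and 3.11 to 7.99 in fasted fish (median 5.71). All 9 fish were above the fasted mean, and the difference was 0.71 (SE 0.15, adjusted p = 0.00115 by limma). Protein-S-isoprenylcysteine O-methyltransferase, which completes the processing of prenylated proteins, rose by 0.61, beta-1,4 N-acetylgalactosaminyltransferase by 0.58 and oxysterol-binding protein 1, a carrier of sterols between reticulum and Golgi, by 0.49. The call of oxysterol-binding protein 1 was lost after quantile normalization (adjusted p = 0.125). The vesicle trafficking protein SEC22b was listed in 9 fish at 36 days, at 4.29 to 8.50, and in 4 fasted fish, at 1.90 to 3.02, and was not tested.

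Among transcriptional regulators 5 of 7 tested clones rose and none fell, beside 14.2% higher among all tested clones. After quantile normalization 3 of 7 rose, beside 7.34%. The study printed these names as genes induced in recovery, so that the direction was largely set beforehand. The homeobox protein Hox-C9 had values of 5.55 to 9.75 at 36 days (median 7.65) and 2.70 to 5.76 in fasted fish (median 4.41), with a difference of 0.78 (SE 0.13, adjusted p = 1.29e-04 by limma). Twist related protein 2, which in mammals holds back differentiation of muscle and bone precursors, had values of 7.69 to 10.5 (median 10.1) at 36 days and 4.48 to 7.99 (median 6.44) in fasted fish, a difference of 0.56 (adjusted p = 3.76e-04). In both cases only the edges of the groups overlapped. High mobility group-T protein, a chromatin protein of trout, rose by 0.65, with values of 3.08 to 8.62 at 36 days (median 5.78) and 2.39 to 4.28 in fasted fish (median 3.67).

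SOX-11 and the LIM domain protein LMO4 also rose, by 0.56 and 0.49, and both calls were lost after quantile normalization (adjusted p = 0.0863 and 0.144), where their differences were 0.38 and 0.33. The histone methyl transferase smyd1, needed for myofibril assembly in zebrafish, was not called, with a difference of 0.03 (95% confidence interval -0.28 to 0.34), nor was cyclic AMP-responsive element binding protein 3, at 0.16 (-0.10 to 0.42). The forkhead protein Foxo3A, which in mammals drives genes of muscle atrophy, was listed in 6 fish at 36 days with a mean of 0.974 ± 0.132 (SD) and in 4 fasted fish with a mean of 0.581 ± 0.0326 (SD), too few for the test.

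Of the chaperones, HSP 90-alpha had the largest rise among all named clones tested. HSP 90-alpha, a chaperone that in zebrafish is needed for folding of myosin, had values of 10.9 to 27.7 at 36 days (median 17.8, n = 9) and 4.24 to 6.64 in fasted fish (median 5.35, n = 6). The lowest fish at 36 days was above the highest fasted fish, and the clone was 3.17-fold higher (difference 1.66, SE 0.17, adjusted p = 1.71e-07 by limma). In 2 fasted fish it had no value. With values of 0 set to the lowest value of the array the difference was 2.60.

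The other chaperones and folding enzymes differed among themselves. Peptidyl-prolyl cis-trans isomerase B, an isomerase of the reticulum known for the folding of collagen, had values of 1.10 to 2.25 at 36 days (median 1.68, n = 8) and 0.603 to 1.31 in fasted fish (median 0.75, n = 7), a 2.14-fold higher level (difference 1.10, SE 0.16, adjusted p = 2.09e-05 by limma). The alpha subunit of the chaperonin T-complex protein 1, which folds actin and tubulin, rose by 0.79 (SE 0.15, adjusted p = 2.64e-04), with values of 3.39 to 6.59 at 36 days (median 4.42) and 2.15 to 3.92 in fasted fish (median 2.45). The 5 other tested clones of this chaperonin, for 4 of its subunits, were not called, with differences of 0.07 (gamma) to 0.22 (beta, 95% confidence interval 0.03 to 0.42), although beta was called without fish 8 of the 36-day group (adjusted p = 0.0295) and without fasted fish 7. FK506-binding protein 1A had a difference of -0.22 (95% confidence interval -0.46 to 0.03).

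Of 14 tested mitochondrial clones 3 rose (21.4%) and none fell, beside 14.2% higher among all tested clones. All 10 tested clones of the respiratory chain and ATP synthase had a positive difference (median 0.21), beside 43.6% of all tested clones. After quantile normalization 7 of 10 were positive (median 0.08). Their names came from a cluster raised transiently after refeeding, so that the sign is not independent evidence. Only 1 of 10 was called (10%), the gamma chain of ATP synthase (difference 0.36, adjusted p = 0.0398 by limma). That call was lost after quantile normalization and without fasted fish 2, 5, 6, 8 or 10. The 95% confidence interval was -0.25 to 0.27 for cytochrome c oxidase subunit 3 and -0.32 to 0.37 for NADH-ubiquinone oxidoreductase chain 1. Chain 2 of that enzyme, at 0.33 (adjusted p = 0.0743), was called without fish 3 or fish 4 of the 36-day group (adjusted p = 0.0130 without fish 3), and ubiquinol-cytochrome-c reductase core protein 2, at 0.55 (adjusted p = 0.0769), without fish 10 (adjusted p = 0.0267). Outside the chain, voltage-dependent anion-selective channel protein 3, a pore of the outer membrane, had values of 2.31 to 4.82 at 36 days (median 2.61, n = 8) and 1.64 to 2.06 in fasted fish (median 1.79, n = 8), with no overlap and a difference of 0.64 (SE 0.13, adjusted p = 5.32e-04). Fish 3 had the highest of these values, and the difference was 0.52 without it. Succinyl-CoA ligase, of the citric acid cycle, rose by 0.34, a call lost after quantile normalization (adjusted p = 0.353) and without the 3 arrays of fewer than 1700 values, while channel protein 2 had a difference of -0.03 (95% confidence interval -0.36 to 0.29).

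Among 6 tested clones of cell division and chromatin 2 rose, beside 14.2% higher among all tested clones. Their names came from the study's cluster raised transiently after refeeding on these same arrays, so that the count is not independent evidence. G1/S-specific cyclin D2, which drives entry into DNA synthesis, had values of 5.27 to 8.22 at 36 days (median 5.93) and 3.69 to 4.91 in fasted fish (median 3.95). No fish at 36 days fell within the fasted range, and the difference was 0.56 (SE 0.10, adjusted p = 1.29e-04 by limma). The DNA2-like homolog, related to a helicase and nuclease of DNA replication, rose by 0.49 (8 fish at 36 days and 5 fasted fish), a call lost after quantile normalization (adjusted p = 0.0993). Histone H3 had a difference of 0.06 (95% confidence interval -0.18 to 0.31) and histone H5A one of -0.18 (-0.43 to 0.07).

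Of 19 tested clones of mRNA processing and translation 5 were called (26.3%), beside 32.4% of all tested clones. Of 10 clones of the spliceosome and other mRNA processing, splicing factor 3A subunit 2 rose, by 0.37 (adjusted p = 0.0104 by limma), a call lost after quantile normalization (adjusted p = 0.230), and 9 were not called, among them U2AF 35 kDa subunit at 0.24 (95% confidence interval -0.00 to 0.49) and fragile X-related protein 2 at 0.23 (-0.06 to 0.53). Fragile X-related protein 2 was called without fish 3 of the 36-day group (adjusted p = 0.0181) and Gem-associated protein 7, at -0.23, without fasted fish 6 (adjusted p = 0.0357). The nucleolar proteins fibrillarin and NOP5, of ribosome biogenesis, had differences of 0.16 (-0.13 to 0.44) and -0.24 (-0.51 to 0.02), and 40S ribosomal protein S19 one of -0.17 (-0.41 to 0.08). Brix domain containing protein 2, also of ribosome biogenesis, was not tested. It was listed in 0 fish at 36 days and in 6 fasted fish, at 0.620 to 0.767 (Fisher's exact test, adjusted p = 0.305).

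Among 9 translation clones 2 rose and 2 fell (22.2% each, beside 14.2% and 18.2% of all tested clones), and neither rise was called after quantile normalization. The clones that fell were both subunits of initiation factor 3, which binds the small ribosomal subunit at the start of translation. Its subunit 12 had values of 1.33 to 1.56 at 36 days (median 1.40, n = 5) and 1.93 to 2.36 in fasted fish (median 2.08, n = 7), with no overlap and a difference of -0.56 (SE 0.11, adjusted p = 6.14e-04 by limma). Subunit 4 fell by 0.35 (adjusted p = 0.0199), with all 9 fish at 36 days below the fasted mean. The clones that rose were initiation factor 1A, which scans for the start codon (0.34, adjusted p = 0.0225, lost without fasted fish 8), and glutaminyl-tRNA synthetase (0.30, adjusted p = 0.0462, lost in 11 of 17 fits without a single fish). Clone tcay0002.a.04 of initiation factor 5 had a difference of -0.00 (95% confidence interval -0.23 to 0.22). A further clone of that name, tcay0029.g.08, was not tested. It was listed in 1 fish at 36 days, at 2.59, and in 7 fasted fish, at 2.01 to 2.89 (Fisher's exact test, adjusted p = 0.357). In the other direction, asparaginyl-tRNA synthetase was listed in 8 fish at 36 days and 2 fasted fish, and arginyl-tRNA synthetase in 5 and 0.

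Where 2 tested clones shared a name, their differences were alike. This held for the 26S protease regulatory subunit 4, myosin light polypeptide 6 and troponin C, given above, and for the beta chain of ATP synthase (0.10 and 0.19) and the theta subunit of T-complex protein 1 (0.15 and 0.20), of which no clone was called. In each of the 5 pairs each difference lay within the 95% confidence interval of the other clone. Clones of a name can hold parts of the same transcript, so that they are not separate genes.

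The levels at the other times show which of these clones stood highest or lowest at 36 days. All comparisons with fasted fish share the same 8 fasted fish, and the means are therefore given as a description. The study also chose the named clones by their course over these times. The day of the highest or lowest mean was thus largely set beforehand. Of the 34 named clones called as higher at 36 days 2 had their highest mean of the 5 groups at 4 days, 5 at 7 days, 13 after 11 days and 14 after 36 days. Among those 14 were all 4 reticulum and Golgi clones and 8 of the 14 contractile and cytoskeletal clones. Over fasted fish and 4, 7, 11 and 36 days, in that order, dystrophin had means of 4.32, 4.53, 5.33, 6.16 and 7.21, with SDs of 0.537, 0.570, 0.526, 0.474 and 0.664 (n = 7 to 9). Cyclin D2 had means of 4.11, 6.91, 8.77, 9.86 and 6.09 in the same order, so that it had its highest mean at 11 days. HSP 90-alpha had means of 5.38, 20.5, 15.4, 17 and 17.6, and was thus near its level at 36 days from 4 days on.

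Of the 16 named clones called as lower 12 had their lowest mean at 36 days, 10 of them of protein degradation. In the order of the times, COP9 signalosome complex subunit 7 had means of 2.24, 2.01, 1.71, 1.57 and 0.954. For the Ariadne-2 homolog they were 5.28, 1.75, 2.22, 2.32 and 1.96, with the lowest at 4 days. The initiation factor 3 subunits were lowest at 36 days but not highest in fasted fish, with means for subunit 12 of 2.10, 2.41, 2.17, 2.15 and 1.42 and for subunit 4 of 2.08, 2.40, 2.54, 2.53 and 1.65. The same held for the proteasome activator complex subunit 2, a degradation clone with its highest mean at 4 days. Of the 48 named clones not called at 36 days 44 had their highest mean at 4, 7 or 11 days, 3 in fasted fish and 1 at 36 days. Names of splicing, translation, chaperone, mitochondrial and cell division clones came from a cluster that the study defined by a transient rise. This count was therefore largely set beforehand. Clone tcay0002.a.04 of initiation factor 5, for which 36 days and fasted fish had nearly equal means (1.59 and 1.6), had 2.63 at 4 days, 2.47 after 7 days and 2.53 after 11 days.

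**Figure D5:**
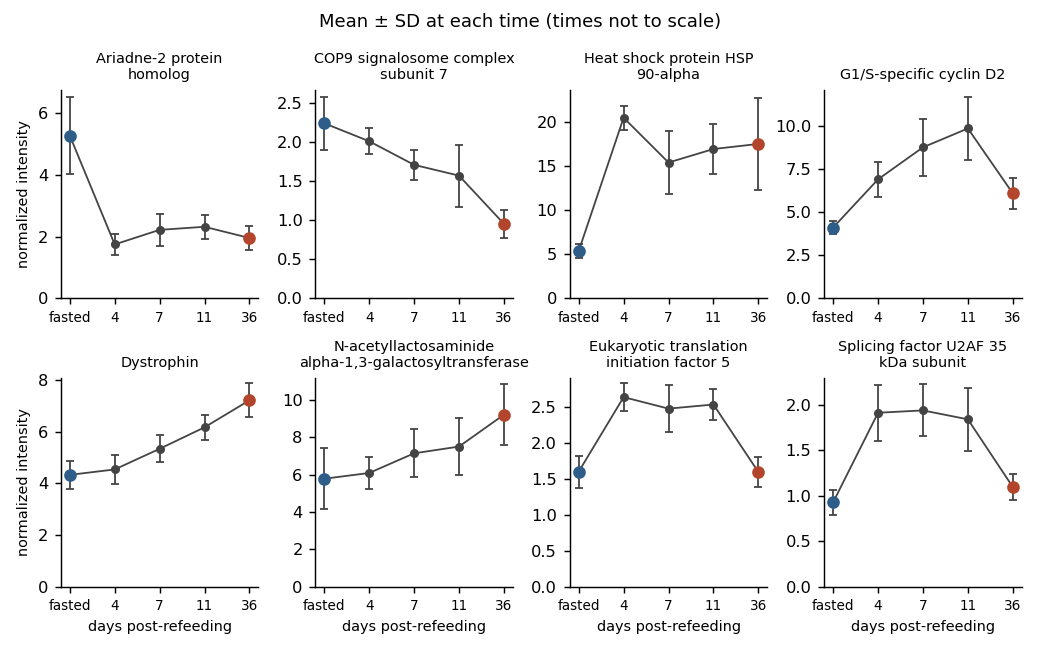
Mean value ± SD (normalized intensity, vertical) of 8 named clones in fasted fish and in fish refed for 4, 7, 11 or 36 days (horizontal, not to scale), with fasted fish in blue and 36 days in red. Dystrophin and the galactosyltransferase had their highest mean at 36 days and COP9 subunit 7 its lowest. Initiation factor 5 (clone tcay0002.a.04) was high at 4 to 11 days and near its fasted level at 36 days. U2AF 35 kDa subunit was also high at 4 to 11 days. It had its lowest mean in fasted fish and was not called at 36 days.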

How the data were processed

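Muscle RNA of single fish was labelled with 33P and hybridised to nylon arrays. The authors quantified the spots with BZScan, left out spots whose vector oligonucleotide signal was too close to background, and scaled every remaining signal first to that oligonucleotide and afterwards to the array median. The deposited values are these normalized intensities, without counts, so that the depth of a value is unknown and the number of arrays limits the precision. Cells that were empty or held 0 counted as missing, and 193 control rows of 9216 were left out. No column of another series was present (0).

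The 17 arrays were grouped by their titles. Log2 intensities were fitted, for clones measured in 5 or more fish in the refed and in the fasted group, with limma 3.58.1 (R 4.3.3, statmod 1.5.0) with 1 mean per group and no covariate, two-sided, and p was adjusted by Benjamini-Hochberg over the 1676 clones tested. The calling was tested on simulated data. Fisher's exact test compared the number of fish with a value. Tables and plots were made with Python 3.11.15, pandas 2.3.3, numpy 2.4.6, scipy 1.17.1 and matplotlib 3.10.9.

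The table of values names no gene. Names of 290 clones were read by eye from the labels in pictures of the study's heat maps and matched to the table by clone, and the sorting into roles leans on how the study grouped them, so that both the names and the roles rest on those pictures. Named with values were the 15 largest rises and falls called, shared names, members of each role with the lowest adjusted p and 1 or 2 that were not called, and at most 2 unnamed clones in each direction. Cathepsin B, the other clones listed in few fish and those called only without 1 fish were chosen after their values were seen. The comparison, the members, the roles and these lists were chosen with earlier results of these data known. Alternatives were a stricter threshold, SAM (written anew, 100 permutations), all 43 arrays in the fit, the fish number as a block, quantile normalization, re-centring, log offsets, other treatments of zeros and minimums of fish, a filter on dim clones, an intensity trend with robust variance, array weights and leaving out each fish. The number of values as a covariate and leaving out arrays under 1700 values were added after seeing the data. Fish numbers in the titles are shared by groups but were not taken to pair fish. Labels give no batch of membranes or hybridisations.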

Additional observations from a re-analysis of the deposited data

Results flagged for a closer look

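A fish was marked where the gap between its log2 value and the nearest other fish of its group was large against the range of the group, by Dixon's 95% critical value. Of 198 groups of fish looked at, 20 held such a fish, where about 5% would be marked by chance. Fish 3 of the 36-day group was the fish marked in 10 of the 20, at the low end in 8 of them and at the high end in 2. No other fish was marked more than 3 times.

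At the low end, fish 3 of the 36-day group had 5.16 for ubiquitin (the other fish of the group 9.48 to 13.1), 1.44 for 26S proteasome non-ATPase regulatory subunit 4 (2.34 to 3.04), 7.89 for tropomyosin alpha 4 chain (11.2 to 14.8) and 3.91 for F-actin capping protein beta subunit (5.53 to 7.86). It also had 2.26 for fragile X-related protein 2 (3.46 to 5.33), 0.893 for aldehyde dehydrogenase family 7 member A1 (1.17 to 1.40), 0.838 for elongation factor 1-alpha, oocyte form (1.31 to 1.54), and 7.02 for 40S ribosomal protein S19 (9.74 to 13.5). At the high end it had 4.82 for voltage-dependent anion-selective channel protein 3 (2.31 to 2.95) and 1.63 for LMO4 (0.929 to 1.23). Without this fish the differences were -0.69 for ubiquitin, 0.52 for channel protein 3 and 0.34 for fragile X-related protein 2.

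In the 36-day group, fish 10 had 8.22 for cyclin D2 (5.27 to 6.59 in the others) and 2.07 for initiation factor 5 (1.41 to 1.6), and fish 4 had 0.620 for scaffold attachment factor B (0.782 to 0.878). Among fasted fish, fish 2 had 1.14 for troponin T of cardiac muscle isoforms (4.87 to 6.74) and 2.86 for splicing factor 3A subunit 2 (2.02 to 2.37). Fasted fish 7 had 2.70 for Hox-C9 (4.06 to 5.76), 2.08 for T-complex protein 1 beta subunit (1.61 to 1.78) and 3.90 for proteasome activator complex subunit 2 (2.54 to 3.03). Fasted fish 5 had 1.17 for the DNA2-like homolog (1.38 to 1.41), and fasted fish 3 had 2.48 for ubiquitin-conjugating enzyme E2-25 kDa (1.98 to 2.18).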

How the results depend on the processing

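No clone named here changed from a rise to a fall or the reverse with its call under any alternative. Against 238 clones higher and 305 lower, counts left the range of 1.5 times under the adjusted p of 0.0001 (41 and 30), SAM at false discovery rates of 0.01% (124 and 89) and 5% (495 lower), quantile normalization (123 higher) and the restriction to the 860 clones measured on every one of the 17 arrays (175 lower, with fewer clones tested), and the cause was not tested for SAM and quantile normalization. Without any 1 fish the counts were 211 to 254 higher and 225 to 321 lower. Under quantile normalization 17 of the 50 named calls were lost. Fish with the same number did not deviate together (correlations of -0.27 to 0.19 over 8 numbers, 0 of 8 best with their own), and with the fish number as a block 218 clones were higher and 217 lower, with 10 named calls lost and 2 gained. Of all clones called, 2 changed direction when values of 0 were set to the lowest value of the array. At an unadjusted p under 0.01, Fisher's exact test gave 18 clones with a value more often at 36 days and 58 more often in fasted fish. Clones that were dim or often empty could not be tested, and their levels remain unmeasured here.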
